A study of Homo sapiens with 31 samples.

Results

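The circRNAs of DNA replication and repair genes were followed in differentiating H9 cells, an established human embryonic stem cell line. They were all the back-spliced structures whose named transcript belongs to a gene with a symbol of the FANC, XRCC, ERCC, MCM, ORC, RFC, MSH or numbered RAD families, of the replicative, repair and bypass polymerases POLA, POLD, POLE, POLH, POLK and POLQ, of the topoisomerases TOP1 and TOP2, or to one of ATM, ATR, BRCA2, BRIP1, BLM, WRN, PALB2, PRKDC, RIF1 or TP53BP1. This rule took in 890 of 55371 circRNAs (1.61%), from 79 genes. They held 9217 of 1029205 back-splice reads (0.896%), and 164 of them, from 65 genes when counts were summed by gene, had enough reads for testing. Because the rule goes by symbol, it also took in 7 genes with other or mixed roles, such as MCM3AP and ERCC6L2, and these were kept apart by role.

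Total RNA depleted of ribosomal RNA was sequenced in 15 libraries, 3 from each of 5 groups: undifferentiated cells at day 0, and cultures on the way to retina at day 45 and at day 90, each without and with the growth factor IGF-1. IGF-1 was given at 5 ng/ml to day 37 and at 10 ng/ml after it. No group carried any genetic change, all replicates came from separate platings of a single cell line, and cells were taken from the whole culture, with no embryoid bodies picked out by hand. The p-values below therefore measure the spread between cultures of 1 line.

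Before each cell division, the origin recognition complex (ORC) marks the places where replication starts and helps to load the MCM helicase, the clamp loader RFC places the sliding clamp, and polymerases alpha, delta and epsilon copy the strands while topoisomerases relieve the twist. Damage is read by the kinases ATM, ATR and DNA-PK, and is mended by base, nucleotide and mismatch excision, by end joining, by homologous recombination and, for crosslinks, by the Fanconi pathway. A circRNA of such a gene forms when the end of one of its exons is spliced back to the start of the same or an earlier exon. Its junction reads count the circle, not the mRNA or the protein, and unlike reads over a whole transcript they do not scale with transcript length.

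The sequences at the back-splice junction are what tell these circRNAs from their mRNAs, and those of the most abundant members and of a few others that the results turn on are shown. Each line gives the last 20 bases of the donor exon in lower case, then the first 20 bases of the acceptor exon in capitals, in the direction of transcription, with positions on hg19. Names give the donor exon and then the acceptor exon, numbered in the transcript that the deposited structure names. The FANCL pair and the ORC4 pair are the 4 most abundant members, and they are given with TOP1, RFC1 and POLD1, whose leading circle holds most of the gene's reads. The RAD23B circles belong to the gene with the smallest adjusted p among members at day 45, and circERCC6:E7-E6 has an unusual donor site.
circFANCL:E5-E2, chr2:58449077-58459247, minus strand: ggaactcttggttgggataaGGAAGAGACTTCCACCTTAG
circFANCL:E7-E2, chr2:58425729-58459247, minus strand: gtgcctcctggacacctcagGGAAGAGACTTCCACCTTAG
circORC4:E5-E2, chr2:148730308-148739650, minus strand: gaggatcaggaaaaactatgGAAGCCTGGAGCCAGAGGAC
circORC4:E5-E3, chr2:148730308-148733544, minus strand: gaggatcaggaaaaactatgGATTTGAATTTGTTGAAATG
circTOP1:E13-E9, chr20:39721112-39729993, plus strand: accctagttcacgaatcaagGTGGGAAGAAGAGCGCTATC
circRFC1:E7-E6, chr4:39328183-39329376, minus strand: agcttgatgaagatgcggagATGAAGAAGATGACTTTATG
circPOLD1:E3-E2, chr19:50902108-50902741, plus strand: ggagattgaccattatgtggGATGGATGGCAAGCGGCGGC
circRAD23B:E9-E2, chr9:110062422-110087285, plus strand: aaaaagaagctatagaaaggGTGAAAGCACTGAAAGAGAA
circRAD23B:E9-E3, chr9:110064316-110087285, plus strand: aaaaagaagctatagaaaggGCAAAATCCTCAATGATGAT
circRAD23B:E9-E7, chr9:110084264-110087285, plus strand: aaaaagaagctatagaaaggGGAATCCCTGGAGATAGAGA
circERCC6:E7-E6, chr10:50708584-50714058, minus strand: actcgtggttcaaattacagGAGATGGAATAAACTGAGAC

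Both FANCL circles close on the same acceptor, the start of exon 2, so their capitals are identical and only the donor differs. The ORC4 pair and the 3 RAD23B circles are the reverse case, with 1 donor joined to different acceptors. The most abundant circle of ATM, the kinase that signals double-strand breaks, is a single exon closed on itself, circATM:E17-E17, at chr11:108137898-108138069 on the plus strand. All 172 bases of that circle are printed next, with the first 20 and the last 20 in capitals, which meet at the junction.
circATM:E17-E17: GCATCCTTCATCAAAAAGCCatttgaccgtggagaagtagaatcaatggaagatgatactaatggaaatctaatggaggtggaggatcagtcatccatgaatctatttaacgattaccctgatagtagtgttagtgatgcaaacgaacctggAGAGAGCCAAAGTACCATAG

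Members were built of somewhat more exons than circRNAs in general. They held a median of 5 exons and 619 spliced bases over 9339 bases of genome, against 4 exons, 512 spliced bases and 10016 bases over the 48105 circRNAs with exon ends in the annotation. The introns beside them were shorter, with medians of 3128 bases upstream and 3221 bases downstream, against 5374 and 4399 bases. Exon 2 was the acceptor in 135 members (15.2%), which held 37.2% of the members' reads, against 21.9% and 37.0% among all. The circle was entirely coding sequence in 794 members (89.2%, against 84.0%), 25 were single exons (2.81%, against 4.60%), and 0 took in a last exon. The largest was circATM:E56-E2, with 55 exons and 8298 spliced bases, at 2 reads.

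Inverted repeats in the flanking introns are known to bring back-splice sites together. A match of at least 100 bases between the intron sequence upstream and the reverse complement of that downstream, within 1000 bases of the sites, was found for 77 of 163 members with at least 10 reads and both introns (47.2%), against 3703 of 10852 circRNAs (34.1%). The matches had a median length of 279 bases and a median identity of 78.9%. No such match was found beside the 5 most abundant members, the FANCL pair, the ORC4 pair and circTOP1:E13-E9. The next, circRFC1:E7-E6, had a match of 119 bases, and circATM:E17-E17 had one of 306 bases. The intron after the donor began with GT in 161 of the 163. The exceptions were circERCC6:E7-E6 and circERCC4:E8-E7, which both began with GC and which were named after their values were seen.

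Few genes supplied most of the reads. FANCL, the ubiquitin ligase of the Fanconi core complex, came first with 1575 reads, followed by ORC4, a subunit of the origin recognition complex, with 828, ATM with 635 and RAD23B, a partner of the damage sensor XPC, with 581. These 4 genes held 39.3% of the members' reads and the first 10 genes held 57.8%. The number of circles per gene did not follow that order. ATM had 86 circRNAs and POLA1 had 51, while ORC4 had 2 and POLDIP2 had 1. A single circle held 71.5% of the reads of TOP1, 72.3% of RFC1 and 95.8% of FANCB, against 11.5% of ATM and 10.2% of POLA1.

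Most members were seen rarely. Of the 890, 353 (39.7%) had 1 read over the 15 libraries, against 36.1% of all circRNAs. At day 0, 246 members were found, and 838 were found later. The 52 members found at day 0 alone had at most 3 reads, and 40 of them had 1. Just 12 members were found in all 15 libraries, among them the FANCL and ORC4 pairs, circTOP1:E13-E9, circRFC1:E7-E6 and circMCM3:E13-E12. Of the 79 genes, 29 had reads in every library, 14 had under 10 reads in all and were not tested, and 5 of those had 1 read.

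The reads of all members together came to 1.74, 1.48 and 1.85 RPM (back-splice reads per 1000000 sequenced reads) in the day 0 libraries. They were at 7.91, 5.73 and 5.22 RPM at day 45, and at 6.11, 5.85 and 5.79 RPM at day 45 with IGF-1. At day 90 they were at 2.55, 4.41 and 4.74 RPM, and with IGF-1 at 5.29, 4.30 and 5.46 RPM. Every later library lay above every day 0 library, the nearest being day 90 replicate 1. The level was 3.72 times that of day 0 at day 45 and 2.31 times at day 90. Over all circRNAs the same ratios were 6.33 and 4.11.

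As a share of all back-splice reads the members went the other way. They made up 1.45%, 1.39% and 1.45% at day 0, 0.804%, 0.883% and 0.857% at day 45, and 0.824%, 0.824% and 0.778% at day 90. With IGF-1 the shares were 1.07%, 0.841% and 0.985% at day 45, and 0.792%, 0.908% and 0.942% at day 90. All 12 later libraries lay below the 3 day 0 libraries, and the later groups overlapped one another. The groups with Fanconi and recombination genes and with replication genes carried most of this difference: the former went from 0.502% ± 0.0145 (SD, n = 3) to 0.224% ± 0.0147 at day 45 and the latter from 0.493% ± 0.0579 to 0.286% ± 0.0281. Excision, mismatch and bypass genes went from 0.176% ± 0.0284 to 0.139% ± 0.00438, and end joining, checkpoint and signalling genes from 0.224% ± 0.0417 to 0.165% ± 0.00894. These shares describe a list chosen with earlier results known and were given no test.

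**Figure D1:**
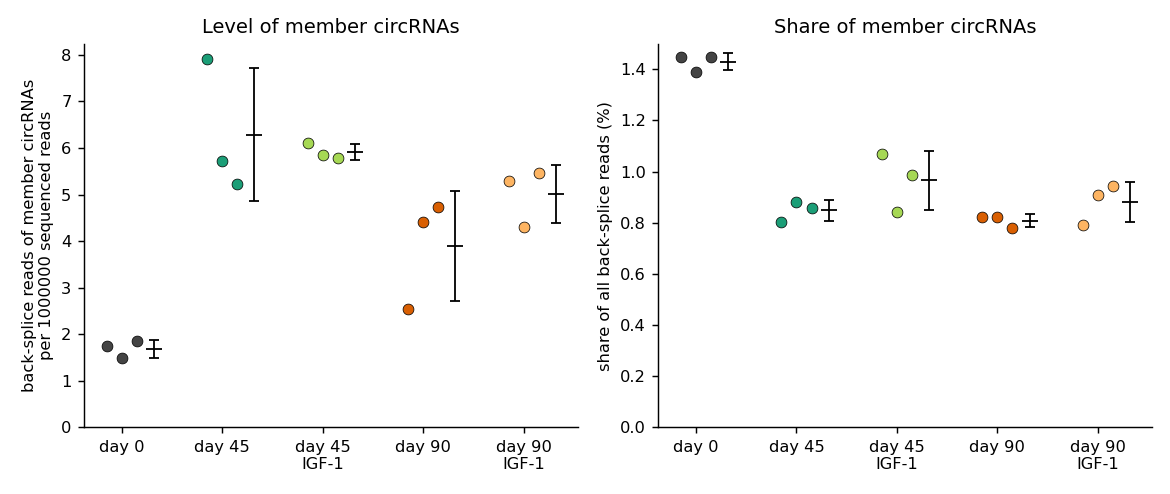
Left, back-splice reads of the 890 member circRNAs per 1000000 sequenced reads; right, their share of all back-splice reads in percent. Points are single libraries in replicate order and bars are the mean and SD of 3. The level at day 0 (1.48 to 1.85) lay under that of every later library, while the share at day 0 (1.39% to 1.45%) lay above every later library.

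Several things moved with time beside these values. Libraries held 14992 to 108946 back-splice reads, with the fewest at day 0. RNA integrity numbers were 9.8 to 10 at day 0, 7.6 to 9.1 at day 45 and 7.1 to 8.9 at day 90, so RNA quality and time cannot be told apart. In bulk samples, fewer cells of a type and less RNA per cell cannot be told apart either. Of the marker genes listed for pluripotent cells, 6 of 14 had a circRNA, summing to 7 to 9 reads in day 0 libraries, 0 to 1 at day 45, 0 to 3 with IGF-1, 1 to 3 at day 90 and 0 to 3 with IGF-1. For eye field and retina it was 5 of 17, with 0 reads at day 0, 1 to 6 at day 45, 3 to 6 with IGF-1, 1 to 11 at day 90 and 7 to 10 with IGF-1. For neurons it was 9 of 10, with 16 to 23, 52 to 128, 45 to 79, 50 to 136 and 55 to 116 reads in the same order. Most of these came from RIMS2, with 54 reads over the day 0 libraries and 146 over those of day 45, while SYT1, the next, had 3 and 53. POU5F1, NANOG, SOX2, PAX6, RAX, OTX2 and CRX had no row among the circRNAs used here. The part of cell type in the results was not tested.

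Between day 0 and day 45, 31 of the 65 tested member genes rose relative to sequenced reads and 0 fell (edgeR's quasi-likelihood test in 1 fit of 15 libraries, adjusted p under 0.05). Of all 4616 genes tested, 61.9% rose and 0.390% fell. The members' median log2 change was 1.87 and that of all genes was 2.77. In 34 member genes (52.3%) the 3 day 45 libraries lay above the 3 day 0 libraries without overlap, against 62.2% of all genes. Of the single circRNAs, 46 of 164 members rose and 0 fell, against 40.9% higher and 0.256% lower over 12498 circRNAs, with medians of 1.98 and 2.87. A gene counts here only if it has at least 10 reads over the libraries, most of which come from later days.

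Because circRNAs rose in general, the choice of scale decides the direction of many members. With TMM factors on back-splice totals, which ask how a gene moved relative to other circRNAs, 2 member genes were higher and 5 lower at day 45. Of all genes 10.8% were then higher and 3.16% lower, and the median of members was -0.26 and that of all genes 0.82. With DESeq2's size factors 1 was higher and 7 lower, against 7.34% and 4.44%, with medians of -0.58 and 0.51. Of the 164 single circRNAs 1 was higher and 2 lower with TMM, against 6.27% and 0.912% of all circRNAs, and 0 higher and 4 lower with DESeq2's size factors, against 2.57% and 1.51%. The 2 lower with TMM were circMSH2:E8-E2 and circFANCM:E8-E6, named after their values were seen. Of the 65 member genes, 47 lay below the median of all genes on each of these scales. Among the 30 member genes with over 3 reads in a day 0 library, the median was 1.44 by sequenced reads, against 2.20 over the 1444 genes of that kind.

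The roles differed in their counts. Of the 24 tested replication genes 11 rose (median 1.94), of 16 Fanconi and recombination genes 3 rose (median 1.26), of 8 end joining, checkpoint and signalling genes 7 rose (median 2.65), of 11 excision, mismatch and bypass genes 6 rose (median 3.31), and of 6 with other or mixed roles 4 rose (median 2.47). On the TMM scale the medians, in the same order, were -0.15, -0.75, 0.51, 1.37 and 0.41, beside 0.82 for all genes. All 16 Fanconi and recombination genes lay below the median of all genes on either scale, and 5 of the 11 excision, mismatch and bypass genes did. Differences between roles were not tested.

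**Figure D2:**
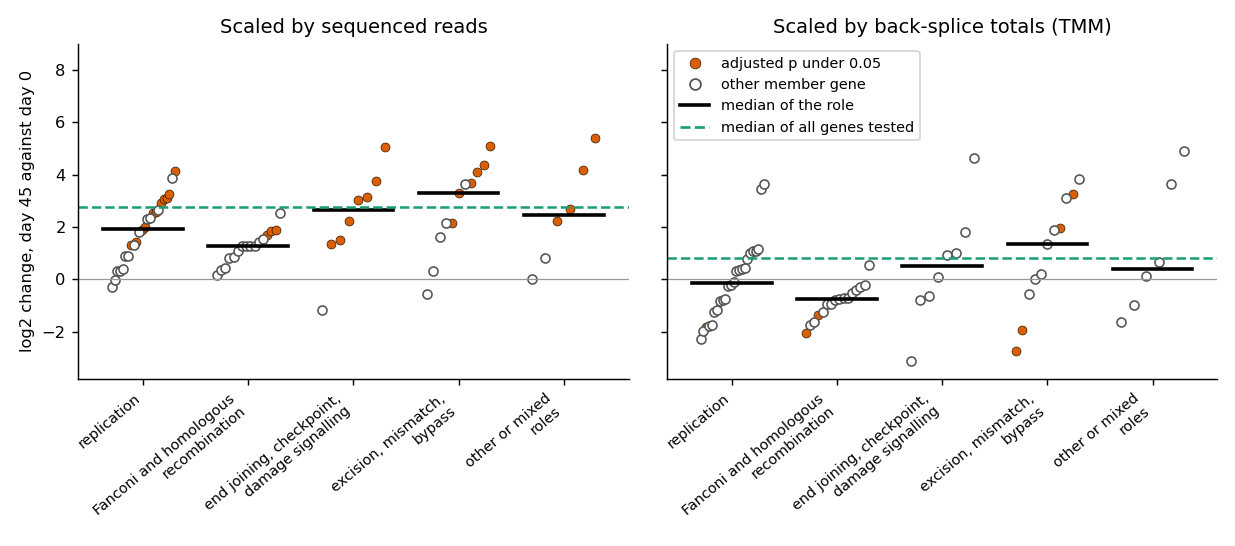
Log2 change of the 65 tested member genes between day 0 and day 45, by role, with sequenced reads (left) and TMM on back-splice totals (right) as scale. Each point is a gene, filled where edgeR's adjusted p was under 0.05; black lines are medians of a role and the dashed line is the median of all 4616 genes (2.77 left, 0.82 right). Fanconi and recombination genes have the lowest median on both scales.

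Among the replication genes, ORC4 was the most abundant. It had 4, 9 and 22 reads at day 0, 65, 77 and 58 at day 45, and 48, 58 and 57 with IGF-1. At day 90 it had 29, 68 and 88 reads, and 85, 61 and 99 with IGF-1. No later library overlapped day 0, and the level at day 45 was 0.513 ± 0.103 RPM against 0.0841 ± 0.0650 (SD, n = 3 each), a log2 change of 2.58 ± 0.45 (SE; edgeR's adjusted p = 7.9e-08). ORC5, another subunit of the complex, went from 3, 1 and 6 reads to 10, 18 and 12, and passed as well (log2 change 2.00 ± 0.63, edgeR's adjusted p = 0.00361). ORC2, the third, had 5, 8 and 3 reads at day 0 and 19, 8 and 15 at day 45, which overlapped in counts. Its change of 1.45 ± 0.59 (edgeR's adjusted p = 0.0262) no longer passed without day 0 replicate 1 (adjusted p = 0.0533), without day 0 replicate 3 (0.112) or without day 45 replicate 1 (0.159). The subunits ORC1 and ORC3 were tested as well and did not pass.

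TOP1, which nicks a single strand to release supercoils, had 4, 4 and 3 reads at day 0, then 44, 35 and 23 at day 45. Its log2 change of 3.26 ± 0.56 (edgeR's adjusted p = 4.66e-08) was among the largest of members with over 3 reads in a day 0 library. It rested mainly on circTOP1:E13-E9, with 2, 4 and 3 reads against 29, 22 and 18. POLD1, the catalytic subunit of polymerase delta, went from 1, 0 and 3 to 13, 15 and 7 reads (3.08 ± 0.77, edgeR's adjusted p = 0.000205). Of these, 124 of its 143 reads over all libraries came from circPOLD1:E3-E2, whose acceptor lies 3 bases from that of a rarer circle of the same name.

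POLE2, an accessory subunit of polymerase epsilon, went from 6, 2 and 7 to 20, 20 and 14 reads (1.88 ± 0.57, edgeR's adjusted p = 0.00269). RFC4, a small subunit of the clamp loader, went from 4, 4 and 1 to 21, 16 and 14 (2.53 ± 0.67, edgeR's adjusted p = 0.000546). The large subunit RFC1 changed less, from 10, 15 and 5 to 19, 24 and 30 reads, and its call (1.31 ± 0.50, edgeR's adjusted p = 0.0173) was lost without day 0 replicate 3 (adjusted p = 0.111). These genes rose by sequenced reads, yet 0 replication genes were higher than at day 0 on the TMM scale, where ORC4 had 0.43 and TOP1 1.08.

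POLA1, the catalytic subunit of the polymerase that lays down primers, stood apart on the TMM scale. It had 6, 10 and 15 reads at day 0, 11, 13 and 13 at day 45, and 3, 7 and 7 at day 90, so the groups overlapped. By sequenced reads its log2 change at day 45 was 0.31 ± 0.57 (edgeR's adjusted p = 0.633). Relative to other circRNAs it was lower, at -1.82 on the TMM scale (edgeR's adjusted p = 0.00345), the lone replication gene with such a call. Its 137 reads were spread over 51 circRNAs, the leading one of which, circPOLA1:E35-E24, held 10.2%. The MCM helicase subunits were counted little. MCM3 had 6, 4 and 2 reads at day 0 and 4, 6 and 5 at day 45. MCM6 had 1, 2 and 6 against 8, 6 and 2. By sequenced reads neither passed at day 45 (edgeR's adjusted p = 0.711 and 0.309). With DESeq2's size factors POLA1 and MCM10 were called lower at day 45, and POLA1, MCM10, MCM3 and TOP2A at day 90. On that scale 0 replication genes were higher at either day, and 4.44% and 4.85% of all genes were lower.

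In the Fanconi and recombination group, FANCL held most of the reads. Its counts were 27, 35 and 42 at day 0, 118, 126 and 121 at day 45, and 133, 131 and 150 with IGF-1. At day 90 they were 60, 94 and 127, and with IGF-1 122, 131 and 158. All later libraries lay above day 0, and at day 45 the level was 0.934 ± 0.121 RPM against 0.254 ± 0.0422 (SD, n = 3 each), a log2 change of 1.87 ± 0.40 (edgeR's adjusted p = 1.22e-05). Against other circRNAs the change was -0.28 and did not pass (edgeR's adjusted p = 0.488). WRN, a helicase, and FANCB, a core complex subunit, were the other genes of the group that rose (1.88 ± 0.70 and 1.71 ± 0.78, edgeR's adjusted p = 0.0153 and 0.0454).

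BRIP1, a helicase of the Fanconi pathway, had 9, 15 and 12 reads at day 0 and 21, 23 and 17 at day 45. At day 90 it had 7, 8 and 11, within or below the day 0 range. By sequenced reads the day 45 change was 0.82 ± 0.50 (edgeR's adjusted p = 0.129), and on the TMM scale it was lower, at -1.34 (edgeR's adjusted p = 0.0216). RAD54B, a translocase of recombination, had 7, 5 and 7 reads at day 0 against 11, 6 and 3, with a change of 0.16 ± 0.67 by sequenced reads (edgeR's adjusted p = 0.837) and -2.03 on the TMM scale (edgeR's adjusted p = 0.0119). FANCM, which moves along forked DNA, had 6, 7 and 4 against 18, 8 and 13 and did not pass on either scale (edgeR's adjusted p = 0.0552 and 0.255). Without day 45 replicate 2 or day 90 replicate 1 it did by sequenced reads (edgeR's adjusted p = 0.0304 and 0.0422).

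Of the end joining, checkpoint and signalling genes, all but 1 of those tested rose by sequenced reads. ATM had 16, 12 and 13 reads at day 0, 68, 66 and 54 at day 45, 33, 68 and 57 with IGF-1, 29, 45 and 43 at day 90, and 47, 43 and 41 with IGF-1. The day 0 libraries lay apart from all later ones, with a log2 change of 2.25 ± 0.45 at day 45 (edgeR's adjusted p = 2.56e-06). PRKDC, the catalytic subunit of DNA-PK, went from 11, 9 and 13 to 30, 28 and 24 reads (1.37 ± 0.48, edgeR's adjusted p = 0.0101). With DESeq2's size factors PRKDC was instead called lower at day 45, the 1 gene of this group with such a call. TP53BP1, which shields broken ends, went from 6, 0 and 3 to 26, 22 and 27 (3.05 ± 0.60, edgeR's adjusted p = 1.81e-06). Its partner RIF1 went from 1, 1 and 3 to 22, 10 and 13 (3.17 ± 0.74, edgeR's adjusted p = 6.49e-05).

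ATR, the kinase of stalled forks, had 2, 2 and 8 reads at day 0 and 15, 9 and 9 at day 45. Its call (1.52 ± 0.66, edgeR's adjusted p = 0.0356) was lost without day 0 replicate 1 (adjusted p = 0.122), day 0 replicate 2 (0.145) or day 45 replicate 1 (0.178). XRCC4, a ligase partner, was the tested gene of the group that did not pass (edgeR's adjusted p = 0.47). None of the 8 genes was called on the TMM scale, where ATM had 0.08 (edgeR's adjusted p = 0.892).

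In the excision group most reads came from RAD23B. It had 6, 1 and 2 reads at day 0 and 61, 38 and 54 at day 45, with 31, 41 and 59 under IGF-1. It stayed at that level at day 90, with 40, 43 and 53 reads, and 50, 53 and 49 with IGF-1. The log2 change at day 45 was 4.09 ± 0.55 (edgeR's adjusted p = 2.53e-12), and RAD23B remained higher relative to other circRNAs, at 1.95 on the TMM scale (edgeR's adjusted p = 0.00213). circRAD23B:E9-E2 had 1 read over the day 0 libraries and 21, 10 and 16 at day 45, 48.4 times the level (95% counting interval 8.27 to 1950). At day 45 it was the lone member circRNA called higher by sequenced reads and with TMM (edgeR's adjusted p = 2.37e-07 and 0.0054). With DESeq2's size factors it did not pass (edgeR's adjusted p = 0.0606). The circles with the same donor, circRAD23B:E9-E3 and circRAD23B:E9-E7, rose by sequenced reads (edgeR's adjusted p = 6.07e-05 and 0.000284) and did not pass with TMM at day 45.

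ERCC6, the transcription-coupled repair factor, had 0, 0 and 1 reads at day 0 and 14, 12 and 19 at day 45, 46.3 times the level (95% counting interval 7.90 to 1870). It passed by sequenced reads and with TMM (edgeR's adjusted p = 3.48e-07 and 0.0448), and was not called with DESeq2's size factors. With IGF-1 at day 45 it had 0, 18 and 21 reads, so replicate 1 of that group was at the day 0 level. MSH3, the mismatch protein for larger loops, went from 3, 6 and 11 to 29, 36 and 21 reads (2.16 ± 0.52, edgeR's adjusted p = 0.000116).

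RAD18, the ligase that marks PCNA for bypass synthesis, had 9, 10 and 7 reads at day 0 and 19, 5 and 6 at day 45, of which replicate 1 held most. Its change was 0.32 ± 0.62 by sequenced reads and -1.93 with TMM (edgeR's adjusted p = 0.652 and 0.00573). RAD18, RAD54B, and the TMM values of BRIP1, POLA1 and ERCC6, were picked out after their values were seen.

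Among genes taken in by their symbol, ERCC6L2, a helicase-like protein, went from 7, 1 and 3 to 16, 14 and 22 reads (2.23 ± 0.63, edgeR's adjusted p = 0.00111). MCM3AP, which works in mRNA export, went from 2, 0 and 1 to 8, 3 and 10 (edgeR's adjusted p = 0.00865). Across the tested genes of all roles, 7 had 0 reads at day 0, namely RAD54L2, RAD9B, POLH, POLE, POLDIP2, ERCC8 and MCM9. Of these, RAD54L2 and POLDIP2 belonged to the other or mixed roles. Taking 3 reads over the day 0 group as the limit that a count of 0 allows (0.00737 RPM), RAD54L2 with 5, 2 and 8 reads at day 45 was at least 5.15-fold higher, RAD9B at least 4.12-fold and POLH at least 2.40-fold.

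**Figure D3:**
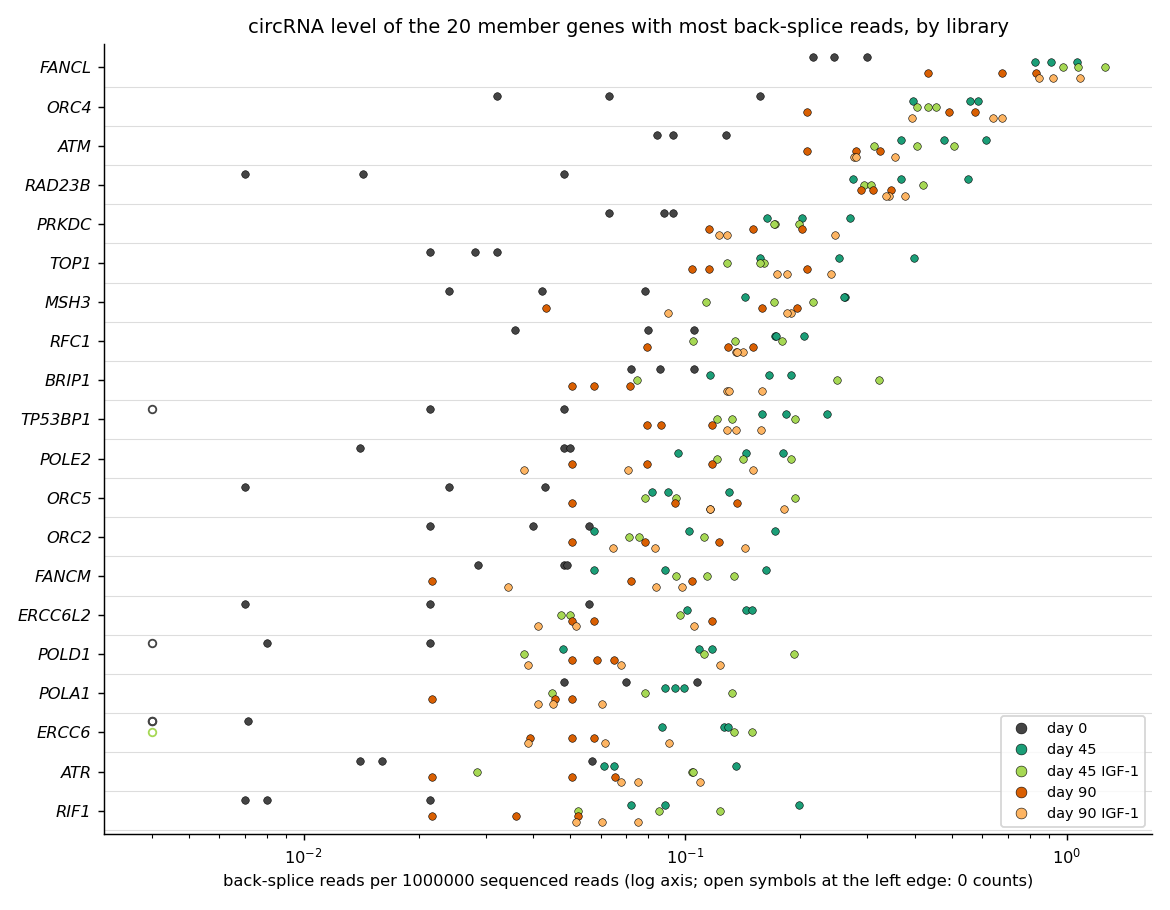
circRNA level of the 20 member genes with the most reads, in back-splice reads per 1000000 sequenced reads on a log axis, each symbol being 1 library; open symbols stand for 0 reads. For FANCL, ORC4, ATM and RAD23B the dark day 0 symbols lie to the left of all others. For BRIP1 and POLA1 some untreated day 90 symbols lie further left than every day 0 symbol.

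The balance of circles within the most abundant genes was examined after their values were seen, for the leading pair of each of the first 2 genes, so 2 relations were tested. circFANCL:E5-E2 made up 73.9%, 68.6% and 82.5% of the reads of itself and circFANCL:E7-E2 in the day 0 libraries. At day 45 it made up 45.1%, 50% and 60.9%, and over all 12 later libraries 42.6% to 63.3%, so no later library reached day 0. The mean was 75% ± 7.03 (SD, n = 3) at day 0 and 51.8% ± 6.46 (SD, n = 12) later, with a two-sided exact permutation p of 0.0044, the smallest these numbers allow (0.0088 adjusted over the 2 relations). With untreated libraries alone the p was 0.0238, again the smallest possible, and for day 45 alone it was 0.1, the smallest that 3 against 3 allow. Pooling the 12 later libraries, here and for ORC4, treats them as independent, although day 45 libraries without and with IGF-1 were taken as paired. The adjustment over 2 relations does not cover picking them after their values were seen.

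In counts, circFANCL:E7-E2 went from 6, 11 and 7 reads at day 0 to 62, 60 and 45 at day 45, while circFANCL:E5-E2 went from 17, 24 and 33 to 51, 60 and 70. Both rose by sequenced reads, with log2 changes of 2.86 ± 0.49 and 1.34 ± 0.43 (edgeR's adjusted p = 1.55e-07 and 0.00889). On the TMM scale they had 1.07 and -0.40 and neither passed (edgeR's adjusted p = 0.0765 and 0.443). The median on that scale was 1.60 over all 12498 circRNAs tested. It was 0.05 over the 1466 with over 3 reads in a day 0 library, as both of these had. circFANCL:E7-E2 includes exons 6 and 7 in addition, for 444 spliced bases against 278. A rarer circle of that same name, with 459 spliced bases and 23 reads over all libraries, was not counted in the pair.

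For ORC4 the day 0 libraries disagreed among themselves. circORC4:E5-E2 made up 25%, 22.2% and 63.6% of its pair with circORC4:E5-E3, on 4, 9 and 22 reads, and 52.1% to 75.9% in the later libraries. The day 0 mean was 37.0% ± 23.2 (SD, n = 3) and the later one 65.1% ± 6.8 (SD, n = 12), with a two-sided exact permutation p of 0.0264 (0.0264 adjusted). Day 0 replicate 3 lay within the later range. Without day 0 replicate 1 or without day 0 replicate 2 the differences were 22.2 and 20.8 percentage points and exact permutation gave p = 0.132 for each, and with untreated libraries alone it was 0.0952.

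**Figure D4:**
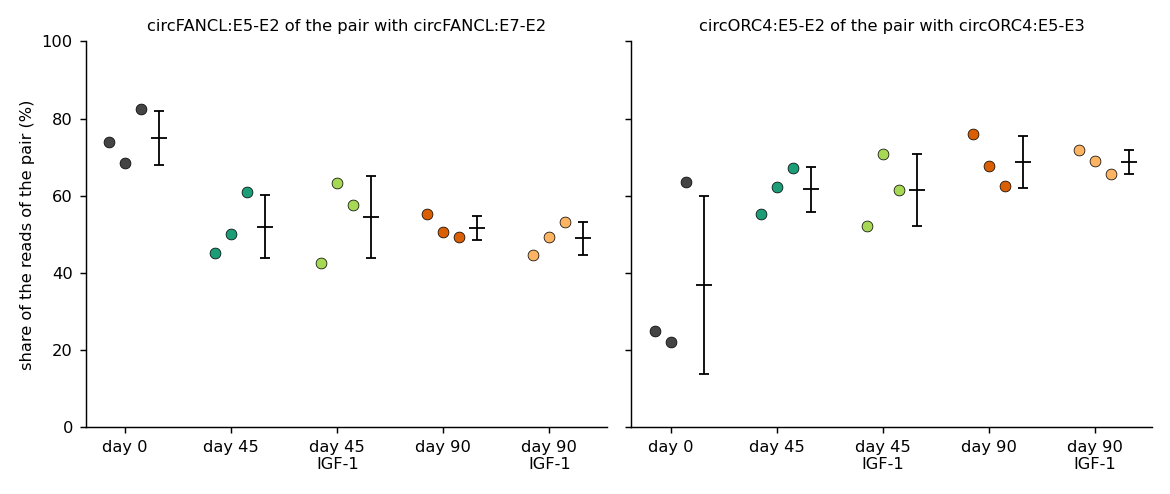
Share of circFANCL:E5-E2 in the reads of its pair with circFANCL:E7-E2 (left) and of circORC4:E5-E2 in its pair with circORC4:E5-E3 (right), in percent. Points are single libraries and bars the mean and SD of 3. On the left all later libraries (42.6% to 63.3%) lie under day 0 (68.6% to 82.5%), and on the right 1 day 0 library, at 63.6%, lies within the later range.

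At day 90 fewer members differed from day 0. By sequenced reads 14 of 65 genes were higher and 0 lower, against 43.4% and 0.672% of all genes, with medians of 1.14 and 2.14. They were FANCL, ORC4, ATM, RAD23B, TOP1, MSH3, TP53BP1, ORC5, POLD1, ERCC6, XRCC5, RAD54L2, POLH and RFC5. RAD23B had the smallest adjusted p, with a log2 change of 3.76 ± 0.55 (edgeR's adjusted p = 3.57e-10) beside 4.09 at day 45, and the 2 comparisons share the day 0 libraries. ORC4 had 2.31 ± 0.45 and FANCL 1.34 ± 0.40 (edgeR's adjusted p = 2.79e-06 and 0.0028). The count fell to 7 without day 0 replicate 2 and to 8 without day 90 replicate 3.

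On the TMM scale 1 member gene, RAD23B, was higher at day 90 and 3 were lower, POLA1, BRIP1 and RAD18 (edgeR's adjusted p = 0.000258, 0.000257, 0.000705 and 0.000908), against 10.8% and 3.49% of all genes. With DESeq2's size factors 1 was higher and 8 lower, against 7.45% and 4.85%. In 14 member genes (21.5%) all 12 later libraries lay above day 0, against 33.6% of all genes. At the level of single circRNAs 17 of 164 members were higher than at day 0 and 0 lower, against 21.7% and 0.328%. With TMM 3 were higher and 1 lower, against 5.90% and 1.04%, the 3 being circRAD23B:E9-E2, circORC4:E5-E2 and circRAD23B:E9-E3 (edgeR's adjusted p = 0.00335, 0.012 and 0.0141) and the 1 circRAD18:E7-E5 (edgeR's adjusted p = 0.022). These 4 were named after their values were seen. With DESeq2's size factors 1 was higher and 2 lower, against 2.88% and 1.55%.

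Between day 45 and day 90 no member passed: 0 of 65 genes and 0 of 164 circRNAs by edgeR, where 0.282% of all genes and 0.0800% of all circRNAs did. At an unadjusted p under 0.05 there were 10 genes, all lower at day 90, and 12 circRNAs, 15.4% and 7.32% of those tested, where 647 of 4616 genes and 9.61% of all circRNAs had such a p. With TMM 3 member genes did, and with DESeq2's size factors 2. The 10 genes were ATM, TOP1, BRIP1, TP53BP1, POLA1, ERCC6, RIF1, TOP2A, RFC4 and ERCC4. The nearest to the threshold was RFC4, with 21, 16 and 14 reads at day 45 and 5, 6 and 3 at day 90 (log2 change -1.98 ± 0.63, edgeR's adjusted p = 0.145). The members' median was -0.74 beside -0.63 for all genes. With TMM and with DESeq2's size factors the count was 0 as well, against 0.0650% and 0.0867% of all genes.

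IGF-1 gave no call among the members at either time, in a fit that did not use the pairing of the day 45 libraries. At day 45, 0 of 65 genes and 0 of 164 circRNAs passed in edgeR, against 0.0217% of genes and 0.0160% of circRNAs, and 0 genes and 4 circRNAs had an unadjusted p under 0.05, as did 4.51% of all genes and 4.58% of all circRNAs. At day 90 it was 0 genes and 0 circRNAs, against 0.0217% and 0.00800%, with 4 genes and 6 circRNAs at an unadjusted p under 0.05, where 3.25% of all genes and 4.17% of all circRNAs had one. RFC5, a small subunit of the clamp loader, had 4, 3 and 6 reads in untreated and 0, 0 and 0 in treated day 90 libraries, but its adjusted p in edgeR was 1.0. BRIP1 had 7, 8 and 11 untreated and 21, 20 and 19 treated reads at day 90 (log2 change 1.19 ± 0.51, edgeR's adjusted p = 1.0). Under IGF-1, 0 genes passed between day 45 and day 90, against 0.0650% of all genes, and 3 had an unadjusted p under 0.05, as did 4.59% of all genes. Of these MCM10, a factor of origin firing, had 23, 7 and 12 reads at day 45 and 3, 1 and 3 at day 90 (edgeR's adjusted p = 0.121). The difference between the effect of IGF-1 at day 90 and that at day 45 was called in 0 member genes by edgeR, and 3 had an unadjusted p under 0.05, as did 4.38% of all genes.

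Other genes of replication and repair that the symbols leave out were set beside the members. Of 110 such genes listed, 69 had circRNAs and 53 were tested. At day 45, 34 rose and 0 fell by sequenced reads, with a median of 2.05, and on the TMM scale 2 were higher and 1 lower, with a median of -0.07. Their share of back-splice reads went from 1.53% ± 0.126 to 1.06% ± 0.0870 (SD, n = 3 each). Of 38 genes of mitosis 27 were tested and 6 rose, with a median of 1.24, and 25 of the 27 lay below the median of all genes. The mitosis genes' share went from 0.473% ± 0.0800 at day 0 to 0.183% ± 0.00641 at day 45 and 0.128% ± 0.0140 at day 90. At day 90 the medians by sequenced reads were 1.28 for the other replication and repair genes and 0.00 for the mitosis genes, beside 1.14 for the members and 2.14 for all genes.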

How the data were processed

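Back-splice junctions of GENCODE transcripts (hg19) were searched by the authors in every library with PTESFinder, and the deposited values are raw counts of junction reads for each circRNA and library, neither normalised nor pooled. Library names of the table end in a, b or c, which were read as replicates 1, 2 and 3. Structures were assigned to genes by the transcript they are named after, with GENCODE 44 on GRCh37 (coordinates of hg19), and deposited starts were shifted by 1 to count from 1. Counts were summed by gene and tested with the quasi-likelihood functions of edgeR 4.0.16 (R 4.3.3) in 1 fit of the 15 libraries, with sequenced reads taken from the study's sequencing quality sheet as library sizes and no TMM factors, for features with at least 10 summed counts. P-values were adjusted over all features by the Benjamini-Hochberg method at 0.05. For day 90 replicates 1 and 2, which that sheet does not tell apart, the mean of both read numbers was used. The dispersion was 0.131 for genes and 0.179 for circRNAs.

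Other settings tried were TMM computed from back-splice totals, size factors and the Wald test of DESeq2 1.42.0, a minimum of 50 counts or none, a block for replicate numbers, other read numbers for day 90, other readings of the member rule, and each library left out in turn. Replicate numbers were checked for pairing by the correlation of deviations from group means. Over genes it was 0.339, 0.176 and 0.143 for same-numbered libraries of day 45 without and with IGF-1. Differently numbered libraries of these groups had -0.2487 to 0.1305, the highest for untreated replicate 2 and IGF-1 replicate 3. Replicates 1 thus stood clearly apart and replicates 3 hardly did. The same-numbered libraries were taken as paired by the data alone, and the numbers paired no other groups. On simulated counts for 4444 genes with 200 changed 8-fold, the day 45 comparison found 89% with 2.73% of its calls false, and for 11456 circRNAs 72% with 1.37%. Each simulated gene otherwise had the same level in all groups, and all shared 1 dispersion. These rates therefore do not hold for smaller changes or for a general rise from low day 0 counts, as in the data. In the IGF-1 comparison at day 90 of the same simulated counts, where nothing was changed, 0 were called. Intervals of ratios are exact 95% intervals. Like the limit of 3 counts for a count of 0, they cover only counting error, because no molecular identifiers tell copies of a molecule apart. Inverted matches were searched with blastn 2.17.0 (word size 11), and permutation tests were run with scipy 1.17.1 in Python 3.11.15.

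Genes named were the 20 members with the most reads and the 5 largest changes with over 3 counts in a day 0 library, and circRNAs the 15 with the most reads. Other members named in counts, or for their value on the TMM scale or with DESeq2's size factors, were chosen after their values were seen. The members, lists and tests were all chosen with earlier results of these data known. The FIRRE amplicon libraries, canonical junctions and gene expression were not analysed here. One member gene is counted in the totals and is not reported here by name.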

Additional observations from a re-analysis of the deposited data

How the results depend on the processing

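The scale of the libraries decided the direction of the day 0 comparisons. For day 45 against day 0, 7 member genes (2 higher, 5 lower) were called with TMM and 8 (1 higher, 7 lower) with DESeq2 size factors instead of 31, all higher, and for day 90 it was 4 (1 higher, 3 lower) and 9 (1 higher, 8 lower) instead of 14, all higher. Single circRNAs went from 46, all higher, to 3 (1 higher, 2 lower) with TMM and 4 (all lower) with DESeq2 size factors at day 45, and from 17, all higher, to 4 (3 higher, 1 lower) and 3 (1 higher, 2 lower) at day 90. Without a filter 25 and 7 circRNAs were called at day 45 and day 90, and with at least 50 counts 26 at day 45, where fewer circRNAs were tested.

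Log2 changes at day 45 that turned negative with TMM and with DESeq2 size factors, in that order, were FANCL -0.28 and -0.61, PRKDC -0.79 and -1.12, RFC1 -0.82 and -1.15, BRIP1 -1.34 and -1.67, POLE2 -0.26 and -0.58, ORC5 -0.09 and -0.41, ORC2 -0.73 and -1.06, FANCM -0.93 and -1.25, POLA1 -1.82 and -2.14, ATR -0.64 and -0.96, RAD18 -1.93 and -2.26, RAD54B -2.03 and -2.35, circFANCL:E5-E2 -0.40 and -0.99, circRFC1:E7-E6 -0.21 and -0.79, circBRIP1:E13-E12 -0.65 and -1.23, and circFANCB:E6-E3 -0.01 and -0.59. With DESeq2 size factors alone it was ATM -0.24, MSH3 -0.31, ERCC6L2 -0.19, circORC4:E5-E3 -0.21, circPRKDC:E7-E2 -0.30 and circMSH3:E19-E16 -0.36. On these scales the median of all genes at day 45 was 0.82 and 0.51, against 2.77 by sequenced reads. The median of all circRNAs was 1.60 and 1.24, against 2.87.

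With each library left out in turn, 25 to 33 member genes were called at day 45 and 7 to 17 at day 90, with 7 without day 0 replicate 2 and 8 without day 90 replicate 3. circRNAs came to 24 to 47 at day 45, with 30, 24 and 27 without day 0 replicates 1, 2 and 3 and 29 without day 45 replicate 1. At day 90 they came to 7 to 20, with 11 and 7 without day 0 replicates 1 and 2 and 10 without day 90 replicate 2. Between day 45 and day 90 under IGF-1 the count was 0 to 1, the 1 coming without day 45 IGF-1 replicate 2. RAD18 ranged from -0.72 (without day 45 replicate 1) to 0.68 and RAD54B from -0.55 (without day 45 replicate 1) to 0.57, with -0.01 without day 0 replicate 2. The difference of the FANCL share ranged from -26.4 to -19.5 percentage points and stayed past the threshold, and that of ORC4 from 20.8 to 41.5, with 28.2 (p = 0.0952, exact permutation test) in untreated libraries.

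The share of members in back-splice reads, for day 0, day 45, day 45 with IGF-1, day 90 and day 90 with IGF-1, was 1.06%, 0.676%, 0.783%, 0.664% and 0.733% on circRNAs with at least 10 counts. Without FANCL it was 1.21%, 0.720%, 0.783%, 0.674% and 0.713%, and without FANCL and ORC4 1.14%, 0.650%, 0.713%, 0.590% and 0.614%, both chosen after seeing the data. With members also assigned by exon ends, 974 in all, it was 1.48%, 0.913%, 0.889% and 0.961% in the same order, leaving out day 45 with IGF-1, where it moved by less than 1 SD. With 1 library left out the 5 groups ranged over 1.42% to 1.45%, 0.831% to 0.870%, 0.913% to 1.03%, 0.801% to 0.824% and 0.85% to 0.925%.

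With the replicate block, 29 and 14 member genes and 41 and 15 circRNAs were called at day 45 and day 90. In the other comparisons it was 0, so that no count moved by over 1.5 times. The block fits 1 shift per replicate number over all 5 groups, although the numbers paired only the day 45 groups. It is therefore not a paired test of IGF-1 at day 45, and such a test was not run. DESeq2's Wald test called 26 and 11 genes and 41 and 17 circRNAs. Depth limits what could be tested: 164 of the 890 members reached 10 reads, and the others were not tested one by one.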
